A study of Saccharomyces cerevisiae with 12 samples.

Results

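Ribosome biogenesis factors are the proteins that process ribosomal RNA and assemble it with ribosomal proteins in the nucleolus, and that leave before the ribosome begins to translate. The genes described here are the single-gene Saccharomyces cerevisiae probe sets whose symbol is NOP, UTP, RRP, RPF, NSA, NOC or NUG followed by a number. This name rule took 61 of the 5449 S. cerevisiae genes on the array, each with 1 gene-specific probe set. The rule itself used no measured value, but it was chosen with earlier results of these data known. Budding yeast transcribes these genes as a regulon: their RNAs rise together when cells enter rapid growth and fall together on starvation or stress, under the TOR and protein kinase A pathways, the activator Sfp1 and the repressors Dot6 and Tod6. Genes of cytosolic ribosomal proteins respond to the same pathways but are transcribed through other factors, among them Fhl1 and Ifh1.

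The study compared strains of S. cerevisiae that grow on xylose, a pentose sugar of plant biomass. Arrays were made for 8 homozygotes derived from an evolved strain (1 array each, so that each number names a strain), for the evolved strain itself (2 arrays) and for the parental strain (2 arrays). All groups shared the same conditions: YPX medium with 4% xylose, a starting optical density of 0.1, 35 °C, shaking at 200 rpm, and harvest at 25 h. The labels give no genotype, ploidy, transgene or xylose pathway beyond these strain names, and 1 parental and 1 evolved strain stand behind both of those groups.

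Signals are intensities in the authors' units, and a log2 difference is computed from log2 signals without a pseudocount. Of the 5449 genes, 5352 were above background (the 90th percentile of the S. pombe probe sets on the same array, 18.7 to 19.6) on at least 2 arrays and were tested. All 61 factor genes were above background on all 12 arrays, and their lowest signal was 229. The 2 evolved arrays differed little, with a median absolute log2 difference of 0.05 over the factor genes (0.06 over all tested genes), while the 2 parental arrays differed by 0.23 (0.22 over all tested genes). The labels call both pairs biological replicates but do not say whether they came from separate cultures, so that p-values measure the spread between these arrays only. The model used below shares a spread per gene over all 12 arrays, 8 of them homozygotes. The p-values between the evolved and parental strains thus rest in large part on the spread among homozygotes. In a bulk extract, a shift in the mixture of cell states and a shift in RNA per cell cannot be told apart.

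The signals of the factor genes shifted together by small amounts, and the shift differed between arrays of 1 group as well as between groups. For each array, the median over the 61 genes of the log2 signal minus the gene's mean over the 12 arrays was taken. It was -0.09, -0.08, 0.06, -0.02, -0.06, -0.20, -0.02 and 0.15 in homozygotes 1 to 8, 0.14 and 0.15 in the evolved arrays, and 0.14 and -0.08 in the parental arrays. Homozygote 8, both evolved arrays and parental array 1 were thus high and close to each other, and homozygote 6 was lowest. As group means these were -0.03 ± 0.11 in homozygotes, 0.14 ± 0.01 in the evolved strain and 0.03 ± 0.16 in the parental strain (SD, n = 8, 2 and 2). The same median over all tested genes stayed between -0.03 and 0.05 on every array, and that over 129 cytosolic ribosomal protein genes between -0.05 and 0.05.

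**Figure D1:**
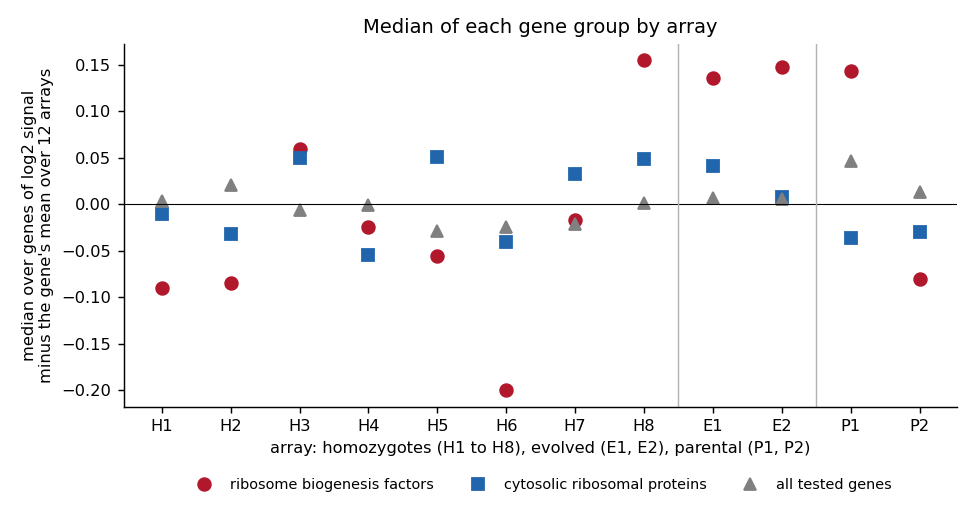
Median, over 3 groups of genes, of the log2 signal minus each gene's mean over 12 arrays (vertical axis) on each array (horizontal axis: homozygotes H1 to H8, evolved E1 and E2, parental P1 and P2). The ribosome biogenesis factor genes (red circles) reach -0.20 on homozygote 6 and 0.15 on homozygote 8, while the ribosomal protein genes (blue squares) and all tested genes (grey triangles) stay between -0.05 and 0.05.

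The arrays were also compared by counts of genes. Of the 61 genes, 59 were above their own mean over the 12 arrays on homozygote 8, 58 and 57 on the evolved arrays, 44 on parental array 1 and 43 on homozygote 3. In contrast, 57 were below it on homozygote 2, 55 on homozygote 6, 54 on homozygote 1, 44 on homozygote 4 and 44 on parental array 2. Among the 8 homozygotes, homozygote 6 had the lowest signal for 36 of the 61 genes (59.0%, against 21.7% of all tested genes), and homozygote 8 had the highest for 43 (70.5%, against 18.7% of all tested genes).

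**Figure D2:**
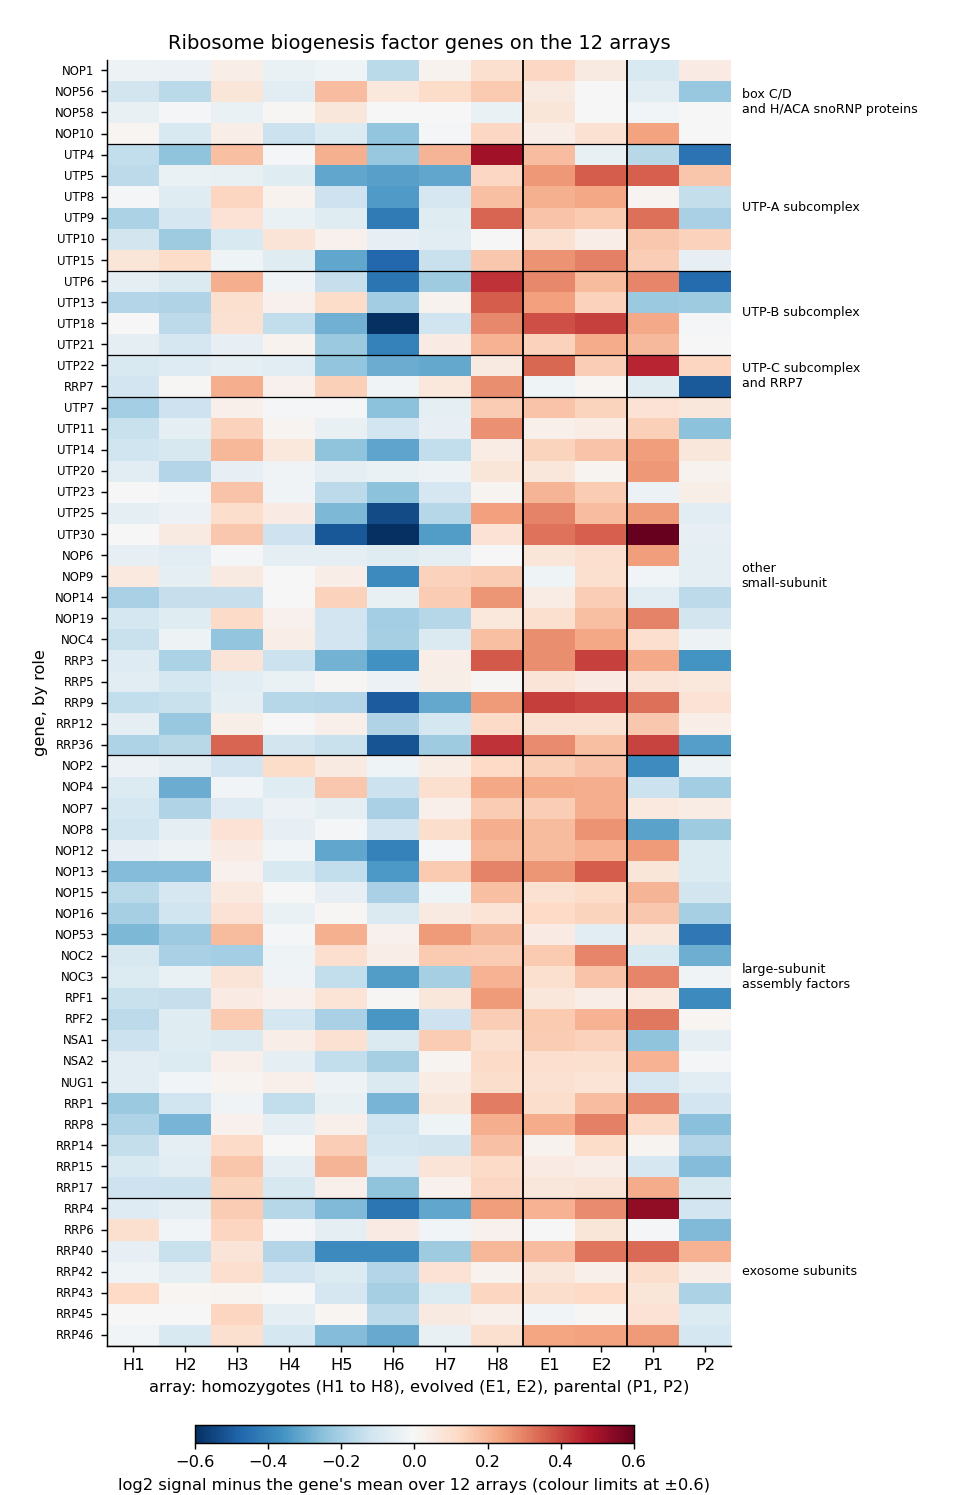
Log2 signal of each of the 61 genes minus its mean over 12 arrays, as colour (red above, blue below, limits at ±0.6), with genes in rows by role and arrays in columns (homozygotes H1 to H8, evolved E1 and E2, parental P1 and P2). The columns of homozygote 8 and of both evolved arrays are mostly red, with 59, 58 and 57 genes above their mean, and that of homozygote 6 is mostly blue, with 55 below.

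Technical readouts of the arrays were set beside this order. The mean log2 signal of 16 ribosomal RNA probe sets was 11.68 ± 0.12 in homozygotes, 11.62 ± 0.04 in the evolved strain and 12.03 ± 0.02 in the parental strain (SD). Within the homozygotes it was 11.90 on homozygote 5 and 11.83 on homozygote 6, which were the highest, and 11.57 on homozygote 8, which was the lowest. The 3'/5' log2 ratio of 8 control transcripts, a readout of RNA integrity and labelling, ran from 0.97 to 1.16 in homozygotes. It was 1.04 on homozygote 6. On homozygote 8 it was 0.967, next to the lowest value, 0.966 on homozygote 5. The ratio averaged 1.01 ± 0.02 on the evolved arrays and 1.06 ± 0.02 on the parental arrays (SD, n = 2 each). The part of these readouts in the shifts of the factor genes was not tested.

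The homozygotes were then compared with the parental strain. A model with 1 mean per group was fitted to all tested genes with limma, and a gene was called at a Benjamini-Hochberg adjusted p under 0.05 over all of them (two-sided). Of the 61 factor genes, 5 were called, 2 higher and 3 lower, which is 8.2% of them, whereas 31.2% of all tested genes were called (13.2% higher and 18.0% lower). The median log2 change of the 61 was -0.10 (range -0.48 to 0.36), beside -0.04 over all tested genes, and the mean was lower in homozygotes for 38 of them (62.3%, against 55.7% of all tested genes). The genes called higher were RRP7 and NOP8, and those called lower were UTP22, UTP5 and RRP40. Scaling changed the split: with median-centred arrays 4 were called higher and 3 lower, and after quantile normalization 2 higher and 5 lower. In these 2 settings 31.3% and 29.4% of all tested genes were called in either direction. With 1 array weight per group in the limma model 0 were called, beside 6.07% of all tested genes. The calls and the median also depended on the parental array used: 3 genes, all higher, and a median of 0.042 without parental array 1, and 1 higher and 9 lower with a median of -0.17 without parental array 2.

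**Figure D3:**
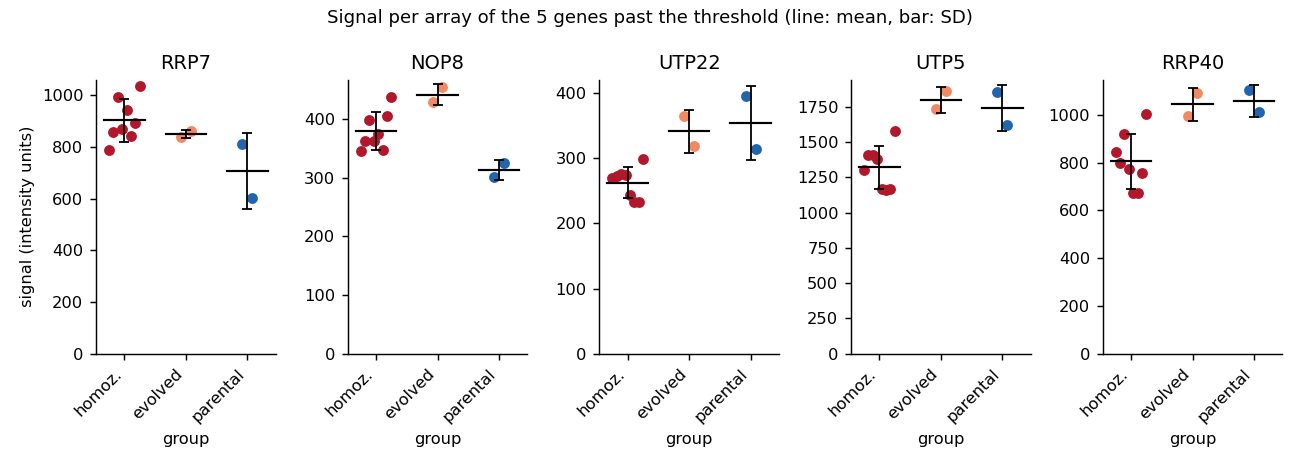
Signal (vertical axis, linear from 0, in intensity units) of RRP7, NOP8, UTP22, UTP5 and RRP40 on each array, as points by group (homozygotes, evolved, parental), with the group mean as a line and the SD as a bar. UTP22, UTP5 and RRP40 lie lower in every homozygote than on both parental arrays, NOP8 lies higher in every homozygote, and for RRP7 homozygote 1 lies below parental array 1.

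RRP7 and UTP22 belong to 1 module of the small-subunit processome, since Rrp7 binds the UTP-C subcomplex of which Utp22 is part. RRP7 had signals of 789 to 1035 (median 880) in homozygotes, 837 and 861 in the evolved arrays, and 811 and 601 in the parental arrays. Every homozygote lay far above parental array 2, but homozygote 1 lay below parental array 1, so the groups overlapped. RRP7 rose by 0.36 ± 0.11 in log2 (SE), which is 1.29-fold, with a limma adjusted p of 0.0285. Without parental array 2 the log2 change was 0.15 and was not called.

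UTP22 had signals of 232 to 298 (median 271) in homozygotes, 365 and 318 in the evolved arrays, and 395 and 314 in the parental arrays. All 8 homozygotes were below all 4 other arrays. UTP22 fell by 0.43 ± 0.11 in log2 in homozygotes against the parental strain, to 0.744 of the parental level (limma adjusted p = 0.0119). Without parental array 1 the log2 change was -0.26 and was not called. The 2 genes of this module therefore had changes of opposite sign, and the call of each rested on a different parental array.

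UTP5 encodes a subunit of UTP-A, the subcomplex that binds the nascent ribosomal RNA precursor first and is also linked to its transcription. It had signals of 1159 to 1581 (median 1339) in homozygotes, 1735 and 1864 in the evolved arrays, and 1858 and 1625 in the parental arrays. As with UTP22, all homozygotes were below all 4 other arrays. UTP5 fell by 0.40 ± 0.11 in log2 (0.756-fold, limma adjusted p = 0.0151), and without parental array 1 its log2 change was -0.31 and was not called.

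RRP40 encodes a cap subunit of the exosome, the complex of RNA exonucleases that trims the precursor of the large-subunit RNA and degrades spacer fragments. Its signals were 670 to 1003 (median 785) in homozygotes, 994 and 1093 in the evolved arrays, and 1104 and 1011 in the parental arrays. Homozygote 8, at 1003, came close to the lower parental array. RRP40 fell by 0.41 ± 0.13 in log2 (limma adjusted p = 0.0334). The call was lost without parental array 1 (-0.34), parental array 2 (-0.47), homozygote 4 (-0.40) or homozygote 7 (-0.40).

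NOP8, a nucleolar protein required for assembly of the large subunit, was called in both comparisons with the parental strain, which share the parental arrays. Its signals were 346 to 438 (median 369) in homozygotes, 429 and 454 in the evolved arrays, and 301 and 325 in the parental arrays. Every homozygote and both evolved arrays were above both parental arrays. NOP8 rose by 0.27 ± 0.09 in log2 in homozygotes (1.21-fold, limma adjusted p = 0.0387) and by 0.50 ± 0.12 in the evolved strain (1.41-fold, limma adjusted p = 0.0199). In homozygotes the call was lost without either parental array, at changes of 0.22 (array 1 left out) and 0.33 (array 2 left out), without either evolved array, and without homozygote 3, 5 or 7. In the evolved strain it was lost without parental array 1 (0.44), evolved array 1 (0.54) or evolved array 2 (0.46). Both calls were also lost with only the 2 groups compared in the fit, and with array weights.

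Among the factor genes that were not called between homozygotes and the parental strain, some changes were as large as those that were. UTP30, which encodes a pre-ribosomal protein, had signals of 525 to 921 (median 788) in homozygotes, 1031 and 1053 in the evolved arrays, and 1312 and 795 in the parental arrays. Its parental values enclosed both evolved arrays and 4 of the 8 homozygotes. The log2 change of UTP30 was -0.48 ± 0.21 (limma adjusted p = 0.101). With parental array 1 left out it was -0.12, and with parental array 2 left out it was -0.84 and was called. RRP9, a protein specific to the U3 snoRNP, had a log2 change of -0.36 ± 0.14 (limma adjusted p = 0.0622). UTP4, another UTP-A subunit, had one of 0.36 ± 0.17 (limma adjusted p = 0.118). NOP53, which recruits the exosome to large-subunit precursors, had one of 0.23 ± 0.15, and UTP13 of the UTP-B subcomplex one of 0.22 ± 0.13, with no call for either.

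Complete separation of the groups was found for smaller shares of the factor genes than of all tested genes. All 8 homozygotes were above both parental arrays for 3 genes (NOP8, RRP15 and UTP13), or 4.92%, against 12.5% of all tested genes. All 8 were below both for 5 genes (RRP40, RRP5, UTP10, UTP22 and UTP5), or 8.2%, against 18.7% of all tested genes. RRP5, a large RNA-binding protein needed for both subunits, had signals of 2869 to 3165 (median 3008) in homozygotes, 3256 and 3192 in the evolved arrays, and 3261 and 3224 in the parental arrays. This separation was narrow, with a log2 change of -0.10 ± 0.05 that was not called (limma adjusted p = 0.106). UTP10, a large scaffold subunit of UTP-A, had signals of 990 to 1211 (median 1104) in homozygotes, 1224 and 1180 in the evolved arrays, and 1283 and 1262 in the parental arrays, with a log2 change of -0.20 ± 0.08 (limma adjusted p = 0.0576).

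In the evolved strain against the parental strain, NOP8 was the 1 gene called of 61 (1.64%), and 8.41% of all tested genes were called (3.2% higher and 5.21% lower). With only these 2 groups in the fit, so without the spread among homozygotes, 0 of the 61 and 0.859% of all tested genes were called. The median log2 change of the factor genes was 0.14 (range -0.10 to 0.50), beside -0.01 over all tested genes. The evolved mean was higher for 49 of the 61 (80.3%, against 48.4% of all tested genes). Both evolved arrays were above both parental arrays for 27 (44.3%, against 23.8% of all tested genes), and below both for 1, UTP10 (1.64%, against 28.0%). The count of higher means rested on parental array 2: without it the evolved mean was higher for 29 of 61 with a median of -0.012, and without parental array 1 for 59 with a median of 0.25. Against parental array 2 alone, both evolved arrays were above it for 55 of the 61 (90.2%, against 44.8% of all tested genes). Parental array 1 was above parental array 2 for 53 of the 61 genes (86.9%, against 51.5% of all tested genes), by a median log2 difference of 0.22.

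Of the 5 highest changes in the evolved strain, 3 were those of large-subunit assembly factors. Beside NOP8, these were NOC2 (0.42 ± 0.13, limma adjusted p = 0.067), which escorts precursors from nucleolus to nucleoplasm, and NOP4 (0.39 ± 0.14, limma adjusted p = 0.105), an RNA-binding protein of early precursors. NOC2 had signals of 1500 and 1648 in the evolved arrays, against 1261 and 1096 in the parental arrays. NOP2, a methyltransferase of the large-subunit RNA, had 1987 and 2027 in the evolved arrays, against 1386 and 1763 in the parental arrays, with a log2 change of 0.36 ± 0.11 (limma adjusted p = 0.0573). NOP2 ran against most of the group in the parental strain, where array 1 was the lower. RRP3, a helicase of small-subunit processing, had a change of 0.41 ± 0.22, and UTP13 one of 0.41 ± 0.16, with no call for either. The lowest changes were those of UTP20 (-0.10), UTP10 (-0.08), NOP10 (-0.06), UTP22 (-0.05) and RRP42 (-0.02), none of them called.

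**Figure D4:**
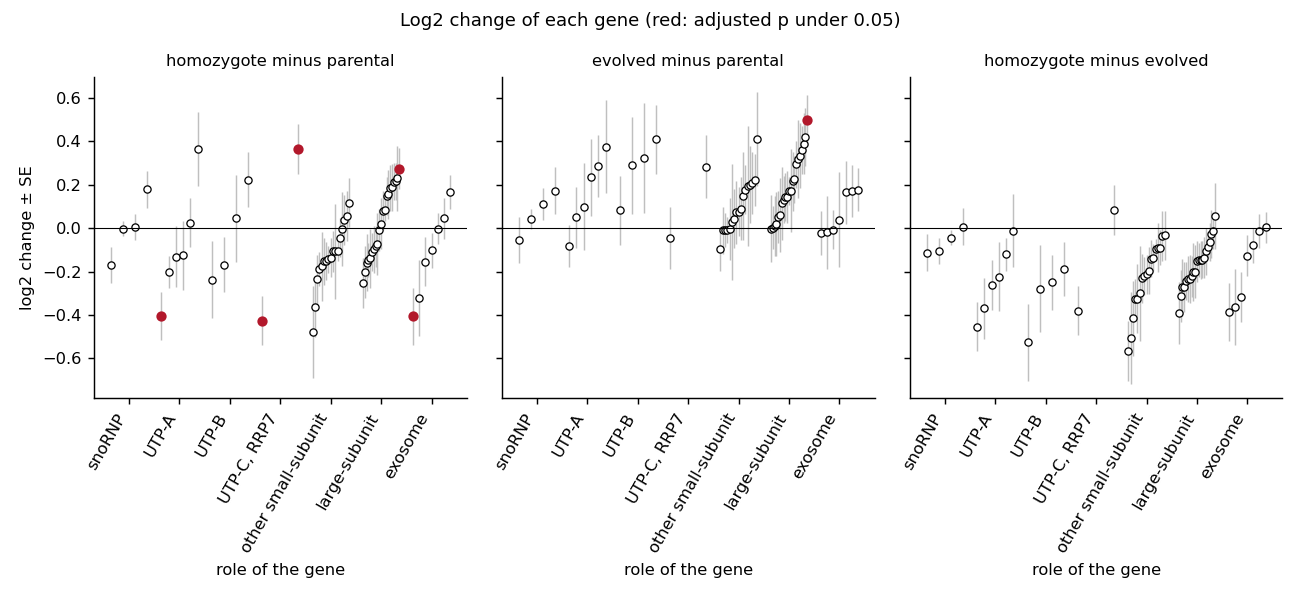
Log2 change with its SE (vertical axis) of each of the 61 genes, by role (horizontal axis), in homozygotes minus parental, evolved minus parental and homozygotes minus evolved. Red points have a limma adjusted p under 0.05 (5, 1 and 0 genes). In homozygotes minus evolved, 57 of 61 points lie below 0.

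In homozygotes against the evolved strain they came from, the factor genes had lower means almost throughout, by amounts that no single gene carried past the threshold. The mean was lower in homozygotes for 57 of the 61 genes (93.4%, against 52.9% of all tested genes), and the median log2 change was -0.20 (range -0.56 to 0.08), beside -0.01 over all tested genes. The 2 arrays of the parental strain differed by a similar amount. Parental array 1 was above parental array 2 for 53 of the 61 genes, by a median log2 difference of 0.22. The factor genes shifted together between arrays, so these counts are not counts of independent genes. The 4 genes whose mean was not lower were RRP7, NOP53, NOP56 and RRP45, named here after their values were seen. With limma, 0 of the 61 genes and 0.0% of all tested genes were called, and at an unadjusted p under 0.05 there were 19 factor genes, all lower (31.1%), beside 10.6% of all tested genes lower and 6.73% higher. With 1 array weight per group in the same limma model, 33 of the 61 were called, all lower, beside 16.4% of all tested genes called lower (28.9% in either direction). Those weights were 0.981 for the homozygotes, 3.69 for the evolved arrays, whose 2 values lie close together, and 0.293 for the parental arrays.

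All 8 homozygotes lay below both evolved arrays for 15 of the 61 genes (24.6%, against 12.8% of all tested genes) and above both for 0 (9.25% of all tested genes). Without homozygote 8, 36 of the 61 separated (59.0%, against 16.2% of all tested genes). With evolved array 1 or evolved array 2 left out, 25 (41.0%, against 18.7%) or 22 (36.1%, against 18.1%) separated. Strain by strain, 57, 59, 41, 55, 50, 56, 49 and 23 of the 61 genes lay below both evolved arrays in homozygotes 1 to 8, and over all tested genes these shares ran between 38.0% and 49.0%. Homozygote 8 was above both evolved arrays for 26 of them. The count of lower means was 54 with median-centred arrays. It was 54 without homozygote 6, 59 without homozygote 8, and 57 without either evolved array, with medians of -0.16, -0.23, -0.19 and -0.16.

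RRP9 had the lowest change in this comparison. Its signals were 734 to 1237 (median 928) in homozygotes, 1384 and 1370 in the evolved arrays, and 1305 and 1100 in the parental arrays. Every homozygote was below both evolved arrays, and homozygote 8 alone lay between the parental arrays. The log2 change against the evolved strain was -0.56 ± 0.14, which is 0.676-fold, with a limma adjusted p of 0.163, and without homozygote 8 it was -0.62 with an adjusted p of 0.0411. UTP18, a UTP-B subunit, had signals of 278 to 547 (median 409) in homozygotes against 586 and 595 in the evolved arrays, with a change of -0.53 ± 0.18 (limma adjusted p = 0.201). UTP30 had a change of -0.51 ± 0.21 (limma adjusted p = 0.247), and UTP5 one of -0.45 ± 0.11 (limma adjusted p = 0.163).

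The genes were also summarised by role. In homozygotes against the evolved strain, the mean was lower for 17 of 17 other small-subunit factors, 20 of 21 large-subunit assembly factors, 6 of 6 UTP-A subunits, 4 of 4 UTP-B subunits, 6 of 7 exosome subunits, 3 of 4 snoRNP proteins and 1 of 2 genes of UTP-C with RRP7. The median log2 changes were -0.26 for UTP-B, -0.24 for UTP-A, -0.21 for the other small-subunit factors, -0.15 for large-subunit factors, -0.15 for UTP-C with RRP7, -0.13 for exosome subunits and -0.08 for snoRNP proteins. In the evolved strain against the parental strain the medians were 0.31 for UTP-B, 0.17 for UTP-A, 0.17 for large-subunit factors, where 20 of 21 means were higher, and 0.04 for exosome subunits. In homozygotes against the parental strain the large-subunit factors had a median of 0.02, with 11 of 21 means higher, and the other small-subunit factors one of -0.14, with 14 of 17 means lower. Whether the roles differ from each other was not tested.

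The snoRNP proteins belong to particles that modify ribosomal RNA, and these genes had the smallest median change against the evolved strain. NOP58, a core box C/D protein, had signals of 6270 to 6757 (median 6426) in homozygotes, 6800 and 6451 in the evolved arrays, and 6385 and 6475 in the parental arrays. All 12 of these values lay within a narrow band. They lie in the upper part of the deposited signals, of which the largest was 12088. Differences may be compressed there, which was not tested. NOP1, the methyltransferase of box C/D particles known as fibrillarin in animals, had signals of 3790 to 4537 (median 4162) in homozygotes, 4620 and 4410 in the evolved arrays, and 3986 and 4386 in the parental arrays. Its changes were 0.00 ± 0.06, 0.11 ± 0.07 and -0.11 ± 0.06 in homozygotes against parental, evolved against parental and homozygotes against evolved, with limma adjusted p of 0.96, 0.399 and 0.361. NOP56, the partner of NOP58 in the box C/D particle, had changes of 0.18 ± 0.08, 0.17 ± 0.11 and 0.01 ± 0.08 in the same comparisons, with no call.

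Of the exosome subunits, RRP40 was the 1 of 7 called in any comparison. RRP4, the other cap subunit by this name rule, had signals of 788 to 1265 (median 977) in homozygotes, 1232 and 1298 in the evolved arrays, and 1538 and 983 in the parental arrays. Its 2 parental values differed by 0.65 in log2. The change of -0.32 ± 0.17 in homozygotes against the parental strain was not called (limma adjusted p = 0.173). RRP6, the nuclear exonuclease of the complex, had signals of 736 to 834 (median 768) in homozygotes, 764 and 803 in the evolved arrays, and 756 and 634 in the parental arrays. Its change was 0.17 ± 0.08 in homozygotes (limma adjusted p = 0.127), and without parental array 1 it was 0.29 and was called.

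Among the 8 homozygotes, the spread of the factor genes was close to that of the array as a whole. The median SD of log2 signal was 0.14 (range 0.02 to 0.31), beside 0.12 over all tested genes, and the highest homozygote exceeded the lowest by a median of 1.32-fold (1.28-fold over all tested genes). An F test of the variance of the homozygotes over that of the duplicate arrays, adjusted over all tested genes, called 0 of the 61 genes and 0.0% of all tested genes. At an unadjusted p under 0.05 it held 1 factor gene, UTP18, and 2.24% of all tested genes. The test rests on the parental duplicates: with either one left out, 56 of the 61 genes were called (and 63.9% or 63.6% of all tested genes), since the close evolved duplicates then set the spread alone.

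RRP36, an early small-subunit factor, varied most between homozygotes, with an SD of 0.31. Its signals were 646, 655, 935, 679, 670, 513, 633 and 993 in homozygotes 1 to 8, 895 and 832 in the evolved arrays, and 972 and 585 in the parental arrays. Homozygotes 3 and 8 stood above the other strains and homozygote 6 below them, and the parental arrays differed by 0.73 in log2. UTP6 of the UTP-B subcomplex (SD 0.27) had signals of 566, 556, 686, 582, 536, 435, 508 and 795 in the same strains, 720 and 673 in the evolved arrays, and 722 and 428 in the parental arrays. The order was again homozygote 8, then 3, with 6 lowest. UTP30 (0.30), UTP18 (0.29) and UTP4 (0.26) were the other genes of large SD, and NOP6 (0.02), NOP58 (0.04) and RRP5 (0.05) had the smallest. NOP6, a small-subunit factor, lay between 2655 and 2781 in all homozygotes, against 2938 and 2997 in the evolved arrays and 3320 and 2685 in the parental arrays.

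The genes that varied most between homozygotes were in part those on which the parental duplicates differed most. Parental array 1 exceeded parental array 2 by 0.75 for UTP6, 0.73 for RRP36, 0.72 for UTP30, 0.65 for RRP4 and 0.58 for RRP3, in log2. The difference was over 0.5 in size for 6 of the 61 genes, and its range was -0.35 to 0.75, with NOP2 at the low end.

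By role, homozygote 6 and homozygote 8 were the lowest and the highest homozygote for most groups. The median of the log2 signal minus the gene's mean over 12 arrays was -0.42 on homozygote 6 and 0.33 on homozygote 8 for UTP-B, and -0.33 and 0.17 for UTP-A. It was -0.25 and 0.15 for the other small-subunit factors, and -0.08 and 0.11 for the snoRNP proteins. The exosome subunits were an exception at the high end, with 0.099 on homozygote 3 and 0.098 on homozygote 8, and the large-subunit factors at the low end, with -0.12 on homozygotes 1 and 6, -0.10 on homozygote 2 and 0.18 on homozygote 8.

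The factor genes also followed each other across the homozygote arrays. With 1 array per homozygote, a difference between strains cannot be told apart from one between cultures. The 2 arrays of the parental strain stood at 0.14 and -0.08 in the median of the factor genes. Over the 8 homozygotes, the 1830 pairs of factor genes had a median Pearson's r of 0.61 (quartiles 0.34 and 0.79), beside 0.02 for pairs of all tested genes, and 89.8% of the pairs were positive, against 51.3%. Pairs of ribosomal protein genes had a median of 0.56. All pairs share the same 8 arrays, so any difference between arrays in labelling or scale enters every pair. After median centring of the arrays the medians were 0.58 for factor genes, 0.64 for ribosomal protein genes and 0.005 for all tested genes. Without homozygotes 6 and 8, which were chosen after the values were seen, the median was 0.30 for factor genes, 0.03 for all tested genes and 0.55 for ribosomal protein genes.

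**Figure D5:**
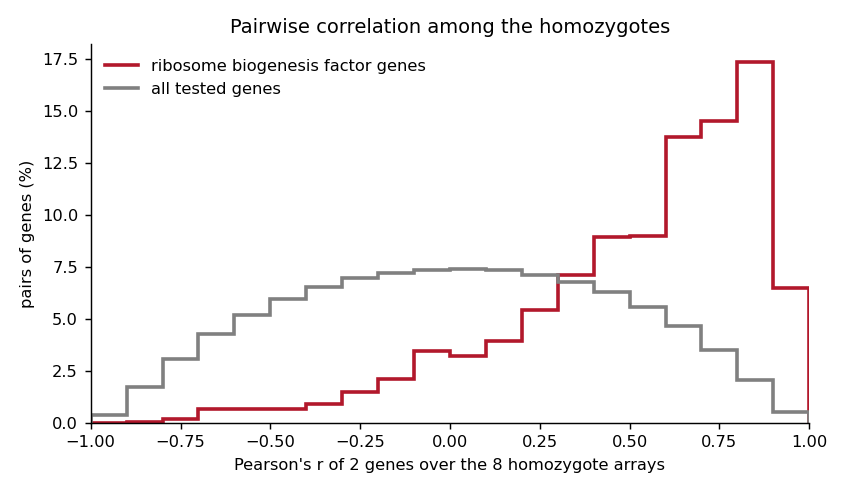
Share of gene pairs (vertical axis, percent) by Pearson's r over the 8 homozygote arrays (horizontal axis), for the 1830 pairs of ribosome biogenesis factor genes (red) and all pairs of tested genes (grey). The red curve lies mostly above 0 with a median of 0.61, and the grey one is centred near 0 with a median of 0.02.

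Against the median of the other 60 factor genes, 51 of the 61 had an r over 0.5 across the 8 homozygotes, and the median r was 0.81. The genes most like the group were UTP9 of UTP-A (0.98), the large-subunit factor NOP15 (0.96), RRP36 (0.95) and NOP1 (0.95). Those least like it were NOP58 (-0.39), RRP6 (0.12), NOC2 (0.17), UTP10 (0.22) and RRP5 (0.27), of which NOP58, RRP5 and RRP6 had small spreads among homozygotes (SD of 0.04, 0.05 and 0.06). These genes were named after their values were seen. RRP15 (YPR143W) and NOC4 (YPR144C), the 1 pair of factor genes that are adjacent by their systematic names, had an r of -0.01.

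A list of 118 other genes of the pathway, without these symbols, was read in the same fit, and 116 were tested. In homozygotes against the parental strain 4 were called higher and 15 lower, where 13.2% and 18.0% of all tested genes were. The median log2 change of the 116 was -0.10. In the evolved strain against the parental strain 0 were called higher and 1 lower, where 3.2% of all tested genes were called higher and 5.21% lower. The median was 0.14, and 95 of 116 means were higher (81.9%, against 48.4% of all tested genes). In homozygotes against the evolved strain 0 were called (0.0% of all tested genes). The median was -0.22, and 103 of 116 means were lower (88.8%, against 52.9% of all tested genes). The counts against the parental strain depended on its arrays: in homozygotes they were 6 higher and 3 lower without parental array 1, and 2 higher and 21 lower without parental array 2, with medians of -0.019 and -0.18. In the evolved strain, 5 were called higher and 104 means were higher without parental array 1 (median 0.23), and 1 was called higher and 66 means were higher without parental array 2 (median 0.030). For homozygotes, the number called lower was 22 without homozygote 8 and 16 without homozygote 3. It was 8 without either evolved array, 9 without homozygote 5 or 7, and 10 without homozygote 4. Of all tested genes, 31.0% were called in either direction without homozygote 8, and 29.3% without homozygote 3. These shares were 27.5% without either evolved array, 27.4% without homozygote 5, and 28.2% without homozygote 7 or homozygote 4. With array weights the counts were 0 higher and 1 lower, CRF1 (6.07% of all tested genes called). With median-centred arrays they were 6 higher and 10 lower (31.3% of all tested genes called). By array, as with the factor genes, homozygote 6 had the lowest median (-0.22) and homozygote 8 the highest among the homozygotes (0.15), with 0.16 and 0.17 on the evolved arrays.

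Among 40 other small-subunit genes, 2 were higher and 1 lower in homozygotes against the parental strain, where 13.2% of all tested genes were called higher and 18.0% lower. The number lower was 0 without parental array 1, 4 without parental array 2 or homozygote 8, and 3 without homozygote 3. BUD22 fell by 0.49 ± 0.13 in log2 (limma adjusted p = 0.0112), FCF1, a PIN-domain protein, rose by 0.34 ± 0.09 (limma adjusted p = 0.0121), and MPP10, a U3 snoRNP protein, rose by 0.27 ± 0.08 (limma adjusted p = 0.0232). Each lost its call without 1 parental array, array 1 for BUD22 (-0.28) and MPP10 (0.16), and array 2 for FCF1 (0.10). Among 51 other large-subunit genes, 2 were higher and 6 lower in the same comparison, beside the 13.2% and 18.0% of all tested genes. The number lower was 0 without parental array 1, 3 without either evolved array or homozygote 5, and 10 without homozygote 8, and the number higher was 0 without parental array 2. The RNA helicase gene SPB4 rose by 0.57 ± 0.17, IPI1 of the Rix1 complex fell by 0.54 ± 0.19, and REI1, a cytoplasmic maturation factor, fell by 0.53 ± 0.14 (limma adjusted p = 0.0196, 0.0458 and 0.0117). SPB4 was not called without parental array 2 (0.35), REI1 not without parental array 1 (-0.37), and IPI1 was lost in 12 of 22 alternative settings. Of 14 other snoRNP and exosome genes 0 were higher and 3 lower, beside the same shares of all tested genes. The number lower was 1 without homozygote 1, 2, 4, 5 or 7. SRP40, a nucleolar chaperone of snoRNPs, fell by 0.39 ± 0.07 (limma adjusted p = 0.00149) and NAF1 and MTR3 by 0.36 ± 0.13 and 0.28 ± 0.10 (limma adjusted p = 0.0462 and 0.0483), the last pair with calls lost in 15 and 13 of 22 settings.

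Of 11 regulators of the regulon and of ribosomal protein genes, 0 were called higher and 5 lower in homozygotes against the parental strain (13.2% and 18.0% of all tested genes). The number lower was 2 without parental array 1 or after quantile normalization, and 3 without either evolved array, without homozygote 7 or with median-centred arrays. CRF1, a corepressor of ribosomal protein genes, had signals of 83.4 to 108 in homozygotes, 86.6 and 110 in the evolved arrays, and 201 and 168 in the parental arrays. All homozygote and evolved arrays were well below both parental arrays. CRF1 fell by 1.0 ± 0.12 in log2 in homozygotes (limma adjusted p = 6.89e-05) and by 0.91 ± 0.15 in the evolved strain (limma adjusted p = 0.00234). The homozygote call held in all 22 alternative settings, and the evolved one was lost in 3 of 24: without evolved array 1 (-0.74), with only these 2 groups in the fit, and with array weights. TOD6, a repressor that binds the promoters of biogenesis genes, had signals of 422 to 613 in homozygotes, 720 and 793 in the evolved arrays, and 756 and 714 in the parental arrays. Every homozygote was below all 4 other arrays. TOD6 fell by 0.59 ± 0.13 in homozygotes against the parental strain (limma adjusted p = 0.00412), and its change against the evolved strain was -0.63 ± 0.13 (limma adjusted p = 0.163).

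DOT6, which encodes the paralogue of Tod6, had signals of 2014 to 2277 in homozygotes, 2148 and 2153 in the evolved arrays, and 1831 and 2136 in the parental arrays, and was not called. The activator gene SFP1 ran at 607 to 794 in homozygotes, 697 and 670 in the evolved arrays, and 844 and 551 in the parental arrays, again with no call. The kinase gene TOR1 fell by 0.38 ± 0.11 in homozygotes against the parental strain (limma adjusted p = 0.017), a call that was lost without parental array 1 (-0.25).

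Genes that mark haploid cells or sporulation were read as a check on the state of the cells. Of 8 haploid marker genes 6 were tested, and their summed signal ran from 555 to 670 in homozygotes, 565 to 582 in the evolved arrays and 596 to 621 in the parental arrays. None was at or below background, and the lowest single signal was 25.6 (STE3, parental array 1). STE3, the a-factor receptor, rose by 0.68 ± 0.18 and STE2, the alpha-factor receptor, fell by 0.41 ± 0.13 in homozygotes against the parental strain (limma adjusted p = 0.0122 and 0.0294), and both calls were lost without parental array 1 (0.32 and -0.22). All 12 sporulation genes were tested, with a summed signal of 1060 to 1413 in homozygotes, 1204 to 1229 in the evolved arrays and 1022 to 1303 in the parental arrays. DIT1, of spore wall synthesis, rose by 1.15 ± 0.12 in homozygotes and by 0.99 ± 0.16 in the evolved strain against the parental strain (limma adjusted p = 2.62e-05 and 0.00144). Of the other sporulation genes, DIT2 was called higher and SSP1 lower in homozygotes, and SPO11 lower in the evolved strain, and 14, 13 and 5 alternative settings ended these calls. Their part in the shifts of the factor genes was not tested.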

How the data were processed

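Total RNA of yeast cultures was hybridised to 12 one-colour Affymetrix arrays as biotin-labelled cRNA made from 100 ng, per the labels' protocols. Each probe set has 1 deposited intensity per array, on a linear scale. The submitters' processing notes name MAS5 without a version or role, and no source used here states how arrays were scaled. The mean over all 10928 probe sets after trimming lay between 449 and 455 on every array.

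Intensities were log2 transformed with no pseudocount and no further normalization. Names came from the platform annotation, with symbols updated through the RefSeq table of assembly R64. As no source used here names the array's build, coordinates are left out, and no promoter or protein sequence was used here. Background was the 90th percentile of 1746 S. pombe probe sets per array, and genes above it on at least 2 arrays were tested. Group means were fitted over all 12 arrays with limma 3.58.1 (R 4.3.3) and an intensity trend in the variance prior, and p-values were adjusted over 5352 genes (Benjamini-Hochberg, 0.05). The fit was also run on simulated data with the same spread for a gene in every group. The real groups differ in spread, so that run does not bear on the calls given here. The number of arrays limits the precision.

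Factor genes were chosen by symbol, and the role, pathway and marker lists from general knowledge. Members and lists were chosen with earlier results of these data known. Genes were named by rule: those called, the 5 highest and 5 lowest changes against the parental strain (3 and 3 against the evolved strain), the 5 largest and 3 smallest SDs among homozygotes, the 5 largest parental differences, fixed examples of each role, and up to 3 called genes per pathway list and comparison. Alternatives covered scaling, filters, probe sets, array weights, the variance prior, a replicate block and leaving out each array. The evolved and parental arrays share the numbers 1 and 2, and the deviations of same-numbered arrays correlated at -0.054 over genes, so the numbers were not taken as pairs.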

Additional observations from a re-analysis of the deposited data

Results flagged for a closer look

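NOP58, a core protein of box C/D snoRNPs, stood out on homozygote 5, with a signal of 6757 there and 6270 to 6490 in the other homozygotes. The gap to the nearest strain was 0.539 of the whole range of the 8 homozygotes, above Dixon's critical value for 8 samples. Of 29 quantities examined in this way 1 was marked, and chance marks about 1 in 20. Homozygote 5 also had the highest ribosomal RNA signal of the homozygotes (mean log2 of 11.90), and the part of this in the NOP58 value was not tested.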

How the results depend on the processing

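The number of factor genes called in homozygotes against the parental strain was 5, 0 with 1 array weight per group, and 3 to 10 when each array was left out. The top of that range came from a fit with 1 parental array left in its group. The number was 3 without homozygote 7, where 28.2% of all tested genes were called. In the evolved strain against the parental strain it was 1, 0 with only the 2 groups compared or with array weights, and 0 to 2 when each array was left out. A replicate block gave 2 genes (NOP2 and NOP8), and so did a block with the numbers crossed, which was added after the data were seen. In homozygotes against the evolved strain the number was 0, 33 with array weights, and 0 to 2 when each array was left out, with RRP9 and UTP5 called without homozygote 8 (29 of all tested genes, 0.542%). The spread test called 0 of the genes, and 0 to 56 when each array was left out. The median log2 change ran from -0.17 to 0.042 in homozygotes against the parental strain, from -0.012 to 0.25 in the evolved strain against the parental strain, and from -0.23 to -0.16 in homozygotes against the evolved strain. The values outside the SD between arrays were 0.042 and 0.25, both without parental array 1, and -0.012, without parental array 2. Leaving out homozygotes 5 and 6, of high ribosomal RNA signal, was also added after the data were seen and gave 5, 1 and 0 called genes and medians of -0.03, 0.14 and -0.16. Over 1022 alternative values of the named genes, 25 lost and 18 gained a call, no called value changed sign, and 28 changes that were not called changed sign. Array number and the distance between the parental duplicates limit what can be called.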
